A study of Sus scrofa with 20 samples.

Results

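The state left in renal tubular cells when polycystin-2 (PC2) and myocardin-related transcription factor A (MRTF-A) were silenced together was described by comparing 4 siPC2+siMRTF-A libraries with the 4 libraries of cells that received a non-related siRNA (siNR), 8 of the 20 libraries of the series. The libraries of the comparison were taken by their sample labels. The cells of both groups were LLC-PK1, an epithelial line from the pig proximal tubule used as its clone 4. They were transfected while subconfluent and then kept without serum before RNA was taken. The siNR cells received only the control siRNA, and the siPC2+siMRTF-A cells received 2 siRNAs, against PC2 (gene PKD2) and against MRTF-A. The other groups were siPC1 (5 libraries), siPC2 (3) and siPC1+siMRTF-A (4). All group sizes follow the labels of the libraries. The study's legend gives other sizes for every group but siPC2+siMRTF-A, siNR included, and which libraries it counted is not given in the sources used here. That legend also gives siRNA doses that differ between groups, and does not say whether total siRNA was made equal. The part of dose in any difference was not tested. In every group with siMRTF-A a polycystin was silenced too, so an effect of siMRTF-A alone was not measured.

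PC2 is a cation channel of the primary cilium and the endoplasmic reticulum that pairs with polycystin-1, and mutation of its gene is a cause of autosomal dominant polycystic kidney disease. MRTF-A is held in the cytosol by monomeric actin. When RhoA signalling assembles actin filaments, it enters the nucleus and, with serum response factor (SRF), switches on genes of the actin cytoskeleton, of focal adhesions and of matricellular proteins. In tubular epithelium this pathway is known for its part in profibrotic reprogramming. The comparison with siNR asks how far a PC2-silenced cell still differs from a control cell when MRTF-A is silenced as well.

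The deposited table lists 46295 Ensembl transcripts by identifier. Neither reference table used here pairs these identifiers with genes (0 of the 46295 matched), so transcripts are given by identifier and no gene is named. For the same reason the silencing of PKD2 and MRTF-A and the proximal tubule markers were not examined at the level of the gene. Estimated counts summed to between 35523102 and 50599719 in the siNR libraries (median 39795328). In the siPC2+siMRTF-A libraries the sums were 36981625 to 71007731 (median 42974268). Within groups, log2 normalized counts of the 19833 transcripts with a mean of at least 50 correlated at r = 0.898 to 0.924 for siNR and at r = 0.907 to 0.940 for siPC2+siMRTF-A. Between the groups, r was 0.818 to 0.853 over 16 pairs. These correlations are across transcripts, which are not independent replicates.

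With PC2 and MRTF-A both silenced, 6427 of the 27702 transcripts tested (23.2%) differed from siNR, 3503 (12.6%) being higher and 2924 (10.6%) lower. To be called, a transcript had to pass edgeR's quasi-likelihood test with a Benjamini-Hochberg adjusted p no greater than 0.05 over all transcripts tested, differ by more than 0.6 on the log2 scale, and average 50 or more normalized counts over the 20 libraries. The raised transcripts had a median log2 fold change of 0.99 (interquartile range 0.76 to 1.41) and the lowered transcripts one of -0.93 (-1.21 to -0.75). The median standard error was 0.14 in both sets. Among called transcripts rises reached further than falls, since 172 of the raised (4.91%) but 27 of the lowered (0.923%) changed by more than 3 on the log2 scale. Of these, 165 raised and 22 lowered had counts divided among transcripts by estimation in at least 1 library, as 96.4% of tested transcripts had. Among called transcripts with whole counts in all 20 libraries, 7 of 68 raised and 5 of 59 lowered changed so far. The part of this division was not tested. The minimum mean count is taken over all 20 libraries, most of them from silenced cells. Where the silenced groups share a change, a rise from near 0 passes this minimum more readily than a fall to near 0. Its part in this difference, and in the counts of 0 that follow, was not tested. In 30 raised transcripts every siNR library had a count of 0, and in 3 lowered transcripts every siPC2+siMRTF-A library did. Set at a floor of 3 counts per library, these rises were at least 4.14 and these falls at least 4.93 on the log2 scale, and the medians of both sets were the same with these bounds. The labels do not say whether libraries of 1 group came from separate cultures. The p-values rest on the spread between libraries within groups, pooled over the 5 groups of the model, and this spread may be technical. In bulk RNA, fewer cells with a transcript and less of it per cell cannot be told apart.

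The split between rises and falls depended on the scaling. When only library totals were used as the scale, 4761 were higher and 2027 were lower, and the median log2 fold change of all tested transcripts moved from 0.028 to 0.185. With DESeq2 and its size factors, slightly more were lower (3397) than higher (3339). Of the lowered transcripts, 2921 (99.9%) were also called by DESeq2, and of the raised, 3216 (91.8%). A test against the fold threshold itself (edgeR's glmTreat) kept 2027 of the raised and 1493 of the lowered transcripts.

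**Figure D1:**
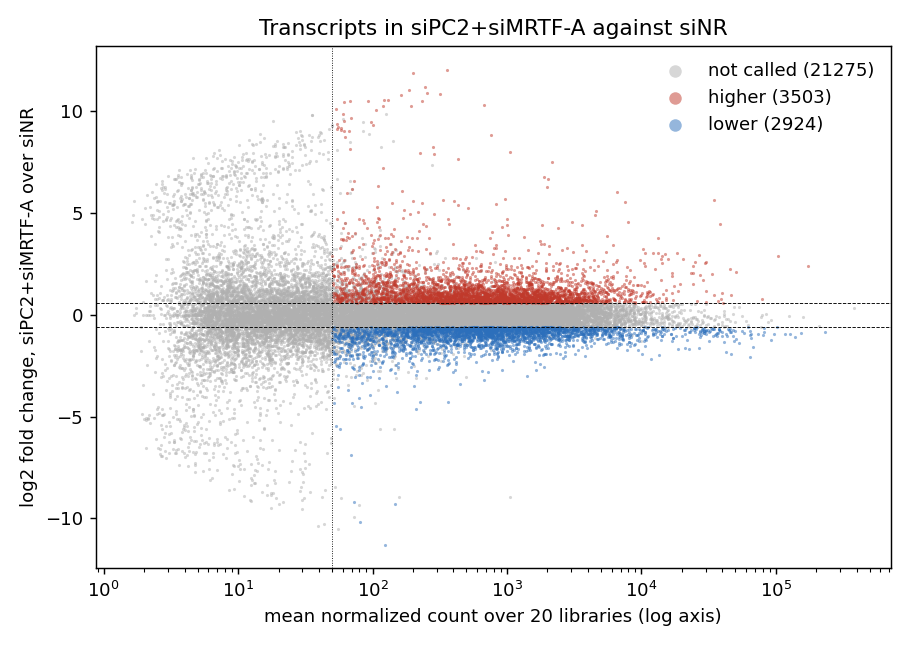
Each point is 1 of the 27702 tested transcripts, with its mean normalized count over the 20 libraries on a log axis and its log2 fold change in siPC2+siMRTF-A over siNR on the vertical axis. Red points are the 3503 transcripts called higher and blue points the 2924 called lower, dashed lines mark a log2 fold change of 0.6 in either direction, and the dotted line marks a mean count of 50. Where every library of a group had a count of 0, the fitted fold is no measured size.

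The 4 siNR and the 4 siPC2+siMRTF-A libraries did not overlap for 6178 of the called transcripts (96.1%), against 42.9% of all tested transcripts. They did not overlap for 3353 of the raised (95.7%) and for 2825 of the lowered (96.6%). The test itself favours transcripts that separate in this way. When each of the 8 libraries was left out in turn, 2794 of the raised transcripts (79.8%) and 2428 of the lowered (83.0%) were called in every fit.

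Transcripts left close to the control level were fewer than those whose level was undecided. Among the 19833 transcripts with a mean count of at least 50, the 95% interval of the log2 fold change lay wholly between -0.6 and 0.6 for 5740 (28.9%). A further 7666 (38.7%) were not called but had an interval reaching past 0.6 in size, so a change of that size in them was neither shown nor bounded at this number of libraries. The adjusted p passed for 4062 transcripts whose fold change was at or under the threshold.

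Among the most abundant transcripts, falls outnumbered rises. Of the 100 with the highest mean normalized count over the 8 libraries, 62 fell and 4 rose in siPC2+siMRTF-A cells, with a median log2 fold change of -0.74. Scaled by library totals, 47 of these 100 were lower and 4 higher (median -0.57), and with DESeq2 67 were lower and 4 higher (median -0.78). Over wider ranges of abundance the balance was less clear. Ordered by mean normalized count over the 8 libraries and divided into 5 equal parts, the transcripts of the most abundant part were lower in 19.5% of cases (1082) and higher in 16.8% (933), an order that was turned by library totals (728 lower, 1264 higher) and kept by DESeq2 (1202 lower, 849 higher). In the second part from the bottom, with a median count of 56.8, 10.5% were higher and 4.73% lower. Means in this part ran from 23.9 to 125, a range that holds the minimum mean count for a call. That minimum is taken over all libraries of the series, most of them from silenced cells. Where the silenced groups share a change, a rise passes it more readily than a fall. With no minimum mean count, 4066 transcripts of all parts together were higher and 3385 lower. Higher calls were then 54.6% of all calls, against 54.5% with the minimum. These calls were not divided by abundance, so the part of this minimum in the excess of rises was not tested, here or in the lowest part. In the lowest part, 4 transcripts were higher and 0 lower, but the median standard error there was 1.20 against 0.10 at the top and no transcript of it had a mean over 23.9 in the 8 libraries, so few calls were possible.

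**Figure D2:**
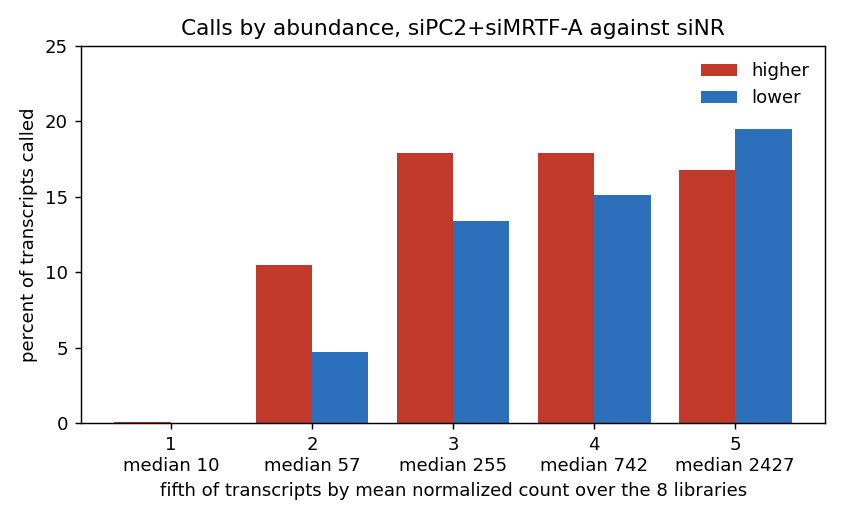
Bars give the percent of transcripts called higher (red) and lower (blue) in siPC2+siMRTF-A than in siNR, for 5 equal parts of the transcripts by mean normalized count over the 8 libraries, with the median count of each part under its number. In part 3, 17.9% were higher and 13.4% lower, whereas in part 5 lower transcripts (19.5%) outnumbered higher ones (16.8%) with TMM factors, though not with library totals.

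A measure that needs no scaling factors was taken as the share of each library's total estimated count held by its own most abundant transcripts. The 20 most abundant transcripts held 8.98%, 9.76%, 9.68% and 10.6% of siNR libraries 1 to 4, and 6.79%, 7.44%, 8.17% and 7.64% of siPC2+siMRTF-A libraries 1 to 4. All 4 siPC2+siMRTF-A values lay under all 4 siNR values. The 100 most abundant transcripts held 22.3%, 23.6%, 23.1% and 25.3% of siNR libraries 1 to 4, and 16.7%, 17.9%, 19.2% and 18.2% of siPC2+siMRTF-A libraries 1 to 4, a difference between the means of -5.60 percentage points. The number of transcripts that together held 50% of a library rose from 778 ± 95.3 (SD, n = 4) with siNR to 1155 ± 98.6 (SD, n = 4) with siPC2+siMRTF-A. Each of these differences had p = 0.0286 in a two-sided exact permutation test of 4 against 4 libraries, the smallest value such a test can give, and an adjusted p of 0.0476 over the 5 library measures tested. All of them are read from the same ordered counts of each library, so they are not independent results. Counts of the doubly silenced cells were thus spread over more transcripts than those of siNR cells. In siPC2 cells without siMRTF-A the 100 most abundant transcripts held 18.4% ± 0.749 (SD, n = 3), in siPC1 cells 19.1% ± 1.32 (SD, n = 5) and in siPC1+siMRTF-A cells 19.4% ± 1.11 (SD, n = 4).

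The number of transcripts detected did not separate the groups. With every library thinned to 35523119 rounded counts, 28401 ± 339 (SD, n = 4) transcripts had a count with siNR and 28979 ± 700 (SD, n = 4) with siPC2+siMRTF-A (exact permutation p = 0.20, adjusted p = 0.20). Transcripts found in 1 group only were few. At 0 in every siNR library and at 10 or more normalized counts in every siPC2+siMRTF-A library were 37 transcripts, of which 15 were called, and the reverse was found for 11, of which 2 were called.

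Together, the 3503 raised transcripts made up 8.78%, 7.50%, 7.77% and 7.30% of the normalized counts of siNR libraries 1 to 4, and 19.7%, 19.8%, 19.2% and 20.1% of siPC2+siMRTF-A libraries 1 to 4. The 2924 lowered transcripts made up 36.0%, 37.8%, 36.7% and 38.7% of the siNR libraries and 20.7%, 21.4%, 22.4% and 21.3% of the siPC2+siMRTF-A libraries. The raised set was higher in every siPC2+siMRTF-A library than in any siNR library, and the lowered set was lower in every one. The sets were chosen on these libraries, so the separation is a description without a test. The loss was the more concentrated of the changes, since 85 lowered transcripts (2.91% of the set) carried 50% of the summed fall in normalized count, and 213 raised transcripts (6.08%) carried 50% of the summed rise.

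**Figure D3:**
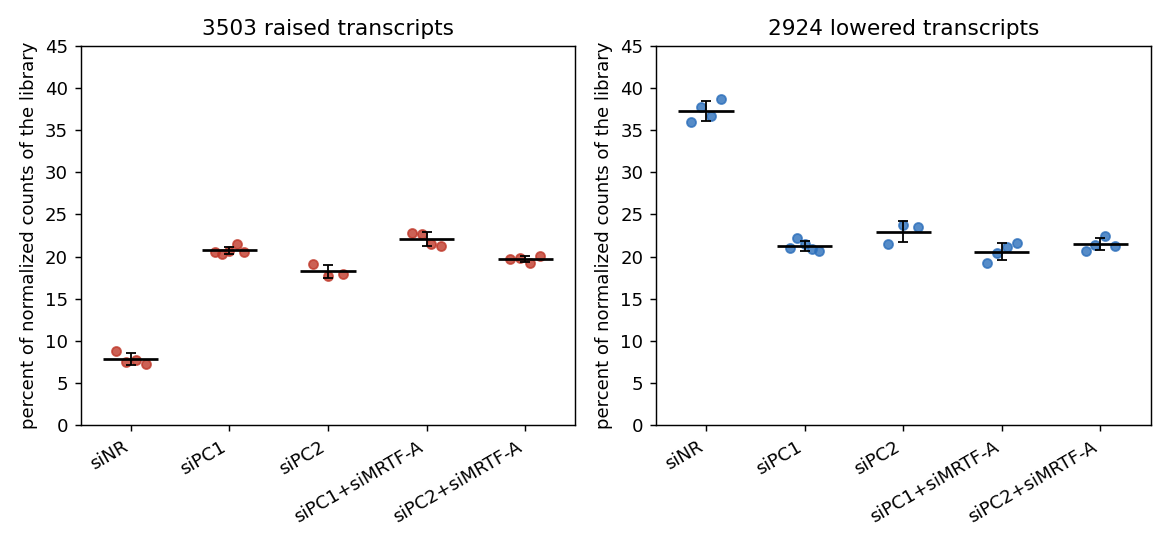
Points show, for each of the 20 libraries, the percent of its normalized counts in the 3503 transcripts raised (left) and the 2924 lowered (right) in siPC2+siMRTF-A against siNR. Black lines give the group mean with its SD. The means of the raised set are 7.84% in siNR and 18.2% to 22.1% in the 4 silenced groups, and those of the lowered set 37.3% in siNR and 20.6% to 22.9% in the silenced groups.

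In the other silenced groups the medians of these sets were close to those in siPC2+siMRTF-A. Relative to siNR, on the log2 scale of the group mean of the normalized counts plus 1, the raised set had a median of 0.98 in siPC2+siMRTF-A, 0.93 in siPC2, 1.0 in siPC1 and 1.05 in siPC1+siMRTF-A. For the lowered set the medians were -0.93, -0.85, -0.92 and -0.97 in the same order. All of these levels use the same siNR libraries, and over all tested transcripts the medians lay between 0.00 and 0.03.

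Whether the doubly silenced cells differed from cells with PC2 silenced alone was tested directly in the same model. In siPC2+siMRTF-A cells 438 transcripts (1.58% of those tested) differed from siPC2, of which 183 were higher (0.661%) and 255 lower (0.921%). Their median log2 fold changes were 0.79 (interquartile range 0.65 to 1.09) and -0.81 (-1.06 to -0.70). Of the 3503 transcripts raised over siNR, 3410 (97.3%) were not called against siPC2, and 2118 (60.5%) had a 95% interval of the difference from siPC2 within 0.6 in either direction. Of the 2924 lowered transcripts, 2779 were not called and 1736 (59.4%) had such an interval. Both shares are near the 57.6% (11424) of all 19833 transcripts with a mean of at least 50 that had such an interval, so they are not particular to these sets. The remaining transcripts without a call had wider intervals, so no likeness to siPC2 was shown for them. The median absolute log2 fold change over the 19833 transcripts with a mean of at least 50 was 0.478 against siNR and 0.167 against siPC2.

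These calls were less steady than those against siNR. When each of the 7 libraries of the 2 groups was left out in turn, 73 of the 183 (39.9%) and 157 of the 255 transcripts (61.6%) were called in every fit. The siPC2 group has 3 libraries, with totals from 11790504 in replicate 2, and without that library 151 transcripts were higher and 240 lower than in siPC2. With DESeq2, 296 were higher and 333 lower, and glmTreat left 12 higher and 41 lower.

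The 255 transcripts that were lower than with siPC2 alone fell into 3 classes by their level against siNR. In 114 (44.7%) the level with both silenced was not called different from siNR, and 63 of these had an interval within 0.6 of it. Their median log2 level over siNR was 0.77 in siPC2 and -0.13 in siPC2+siMRTF-A. In 115 (45.1%) the level was called below siNR, with a median of -0.30 in siPC2 and -1.36 in siPC2+siMRTF-A. The remaining 26 (10.2%) were above siNR, at a median of 2.01 in siPC2 and 1.06 in siPC2+siMRTF-A. Of all tested transcripts, 10.6% were called below siNR and 12.6% above it. Those under a mean count of 50 could not be called. Of the 19833 with a mean of at least 50, as all of the 255 had, 2924 were below siNR and 3503 above it. Among the 255, transcripts below the control were thus about as many as those not told apart from it. The same siPC2+siMRTF-A libraries enter both comparisons, so low values in them favour both calls. The medians of the 3 classes largely follow from how the classes were defined, and are a description without a test.

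Of the 183 transcripts that were higher than with siPC2 alone, 86 (47.0%) were not called against siNR. Another 67 (36.6%) were above it and 30 (16.4%) were below it, where 12.6% and 10.6% of all tested transcripts were. Of the 19833 with a mean of at least 50, as all of the 183 had, 3503 were above siNR and 2924 below it. The 16.4% below siNR is close to that last share. The 86 had a median log2 level over siNR of -0.89 in siPC2 and -0.06 in siPC2+siMRTF-A, and 38 of them had an interval within 0.6 of siNR. The 67 had medians of 0.54 in siPC2 and 1.56 in siPC2+siMRTF-A. The 30 had medians of -2.21 in siPC2 and -1.07 in siPC2+siMRTF-A. These classes too were defined by both calls, so their medians largely follow from the definition and do not test a return to the siNR level.

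Among the transcripts higher than with siPC2, 14 stood at least 4 below siNR on the log2 scale in siPC2. Of these, 11 had a count of 0 in every siPC2 library. Their mean normalized count was 50.9 to 1127 in siNR, at most 53.8 in siPC2 and 30.7 to 734 in siPC2+siMRTF-A. With both silenced, 4 of the 14 were called below siNR and 0 above it. Of the 14, 0 had whole counts in all 20 libraries, that is, in each of them reads had been divided among transcripts by estimation. Only 3.55% of all tested transcripts had whole counts in all libraries, so this is not particular to the 14. The part of this division in their pattern was not tested. In the opposite direction, 3 transcripts stood at least 4 above siNR in siPC2 and were lower in siPC2+siMRTF-A, and 1 of them had whole counts in all libraries.

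**Figure D4:**
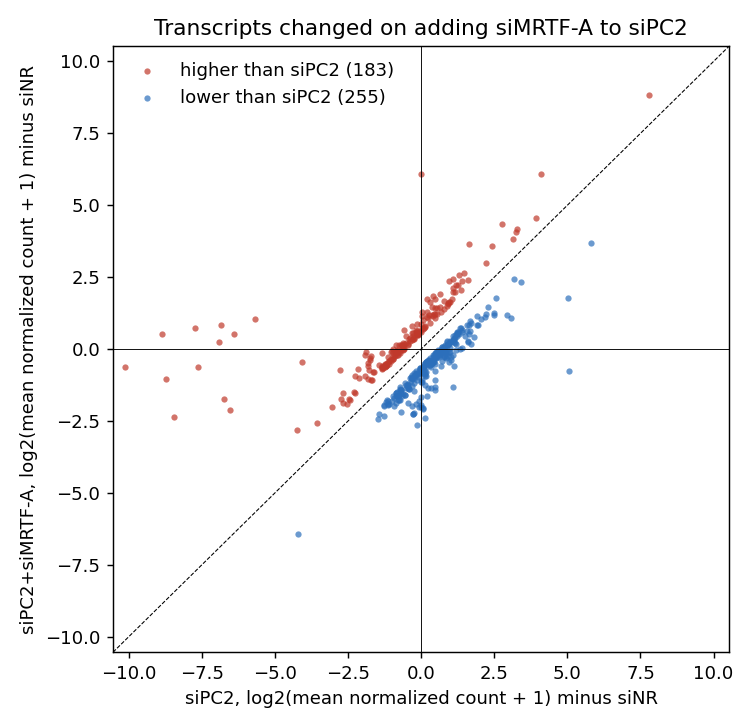
Each point is a transcript called between siPC2+siMRTF-A and siPC2, with its level in siPC2 (horizontal) and in siPC2+siMRTF-A (vertical), both as log2 of the mean normalized count plus 1 minus that of siNR. The 183 red points lie above the dashed line of equal levels and the 255 blue points below it. Points near the horizontal zero line have a mean near that of siNR with both silenced, which alone does not show that their levels are alike. The red points at the far left are among the 14 transcripts at least 4 below siNR in siPC2.

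The doubly silenced cells were also compared with cells in which the other polycystin and MRTF-A were silenced. In this direct test of 4 against 4 libraries, 1508 transcripts (5.44%) differed, of which 795 were higher (2.87% of those tested) and 713 lower (2.57%) in siPC2+siMRTF-A than in siPC1+siMRTF-A cells, with median log2 fold changes of 0.80 and -0.84. All 4 libraries of each group had totals of at least 22874625. Of the 795, 423 (53.2%) were not called against siNR, and their median log2 level over siNR was -0.81 in siPC1+siMRTF-A and 0.03 in siPC2+siMRTF-A. A further 203 (25.5%) were above siNR, with medians of 0.23 in siPC1+siMRTF-A and 1.20 in siPC2+siMRTF-A, and 169 (21.3%) were below it, with medians of -1.85 and -0.94. Of the 713, 287 (40.3%) were not called against siNR, with medians of 0.90 in siPC1+siMRTF-A and 0.04 in siPC2+siMRTF-A. A further 261 (36.6%) were above siNR, with medians of 2.50 in siPC1+siMRTF-A and 1.45 in siPC2+siMRTF-A, and 165 (23.1%) were below it, with medians of -0.28 and -1.11. Over all tested transcripts, 12.6% were above siNR and 10.6% below it in siPC2+siMRTF-A. Of the 19833 with a mean of at least 50, the only ones that could be called, 3503 were above siNR and 2924 below it. Which of the 2 groups lay further from siNR in a class largely follows from how the classes were defined. These medians therefore do not rank the groups by their distance from siNR. Leaving out each of the 8 libraries in turn kept 559 of the 795 (70.3%) and 491 of the 713 (68.9%). Transcripts that siPC2+siMRTF-A moved the same way against siNR, siPC2 and siPC1+siMRTF-A numbered 8 of the 27702 tested, of which 6 were raised. The same siPC2+siMRTF-A libraries enter all 3 comparisons, so extreme values in them favour all 3 calls.

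By a fixed rule, 4 transcripts are named from the comparison with siNR, those with the largest fold and the largest absolute change in each direction among called transcripts whose libraries did not overlap and had a count in every library of the lower group. Candidates were 3254 raised and 2818 lowered transcripts.

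The fold rise was largest for ENSSSCT00000058978.3. Its normalized count was 30.2, 13.4, 5.09 and 18.6 in siNR libraries 1 to 4 and 2087, 3070, 3291 and 3539 in siPC2+siMRTF-A libraries 1 to 4. The siNR values rest on 34, 13, 7 and 20 estimated reads, so the base of the fold is uncertain. On the log2 scale the rise was 7.50, with a standard error of 0.40 and an edgeR adjusted p of 1.02e-10. Every silenced library was high, with means of 2008 ± 39.9 (SD, n = 3) in siPC2, 2211 ± 816 (SD, n = 5) in siPC1 and 3618 ± 978 (SD, n = 4) in siPC1+siMRTF-A. The difference of siPC2+siMRTF-A from siPC2 was 0.58 on the log2 scale (95% interval -0.04 to 1.20, edgeR adjusted p = 0.380) and that from siPC1+siMRTF-A was -0.27 (-0.83 to 0.29, edgeR adjusted p = 0.620).

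The absolute rise was largest for ENSSSCT00000064991.3, ranked 24 by abundance over the 8 libraries. It stood at 36285, 23869, 21685 and 26339 in siNR libraries 1 to 4 and at 133538, 153055, 135890 and 154977 in siPC2+siMRTF-A libraries 1 to 4. On the log2 scale the rise was 2.42, with a standard error of 0.14 and an edgeR adjusted p of 2.20e-10. Its level was highest in the groups with siPC1. With siPC2 it was 109329 ± 3986 (SD, n = 3), with siPC1 270727 ± 36379 (SD, n = 5) and with siPC1+siMRTF-A 271148 ± 12541 (SD, n = 4). The siPC2+siMRTF-A libraries were lower than the siPC1+siMRTF-A libraries by a log2 fold change of -0.91 (95% interval -1.19 to -0.63, edgeR adjusted p = 9.46e-05). Against siPC2 the difference was 0.40 (0.10 to 0.70) and was not called (edgeR adjusted p = 0.142).

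The fold fall was largest for ENSSSCT00000003309.4, whose counts were whole in all 20 libraries. Its normalized count was 187, 439, 433 and 244 in siNR libraries 1 to 4, and 1.28, 0.918, 5.48 and 3.51 in siPC2+siMRTF-A libraries 1 to 4, where it rests on 2, 2, 6 and 4 reads. The log2 fold change of -6.88 had a standard error of 0.69 and an edgeR adjusted p of 2.26e-07. With siPC2 alone the transcript was also low, at 16.7 ± 2.87 (SD, n = 3), and all 4 doubly silenced libraries lay under all 3 siPC2 libraries. This further fall was called, with a log2 fold change of -2.60 (95% interval -3.94 to -1.26, edgeR adjusted p = 0.0230). In siPC2 the level rests on 7, 19 and 12 reads. The transcript was chosen by its fall in the same siPC2+siMRTF-A libraries, and low values there favour this call too. It stood at 2.78 ± 2.60 (SD, n = 5) in siPC1 and 2.21 ± 0.731 (SD, n = 4) in siPC1+siMRTF-A.

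The absolute fall was largest for ENSSSCT00000051184.3, the most abundant transcript over the 8 libraries. Its normalized count was 277199, 362027, 353545 and 399603 in siNR libraries 1 to 4 and 159697, 199426, 229543 and 201656 in siPC2+siMRTF-A libraries 1 to 4. The log2 fold change of -0.82 had a standard error of 0.15, a 95% interval of -1.14 to -0.49 and an edgeR adjusted p of 0.000273, and the test against the fold threshold (glmTreat) did not pass (adjusted p = 0.139). Its mean was 209756 ± 16475 (SD, n = 3) in siPC2, 191205 ± 35576 (SD, n = 5) in siPC1 and 218119 ± 31474 (SD, n = 4) in siPC1+siMRTF-A. Neither siPC2 (difference -0.09, 95% interval -0.43 to 0.26, edgeR adjusted p = 0.938) nor siPC1+siMRTF-A (-0.14, -0.46 to 0.18, edgeR adjusted p = 0.665) was told apart from siPC2+siMRTF-A.

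**Figure D5:**
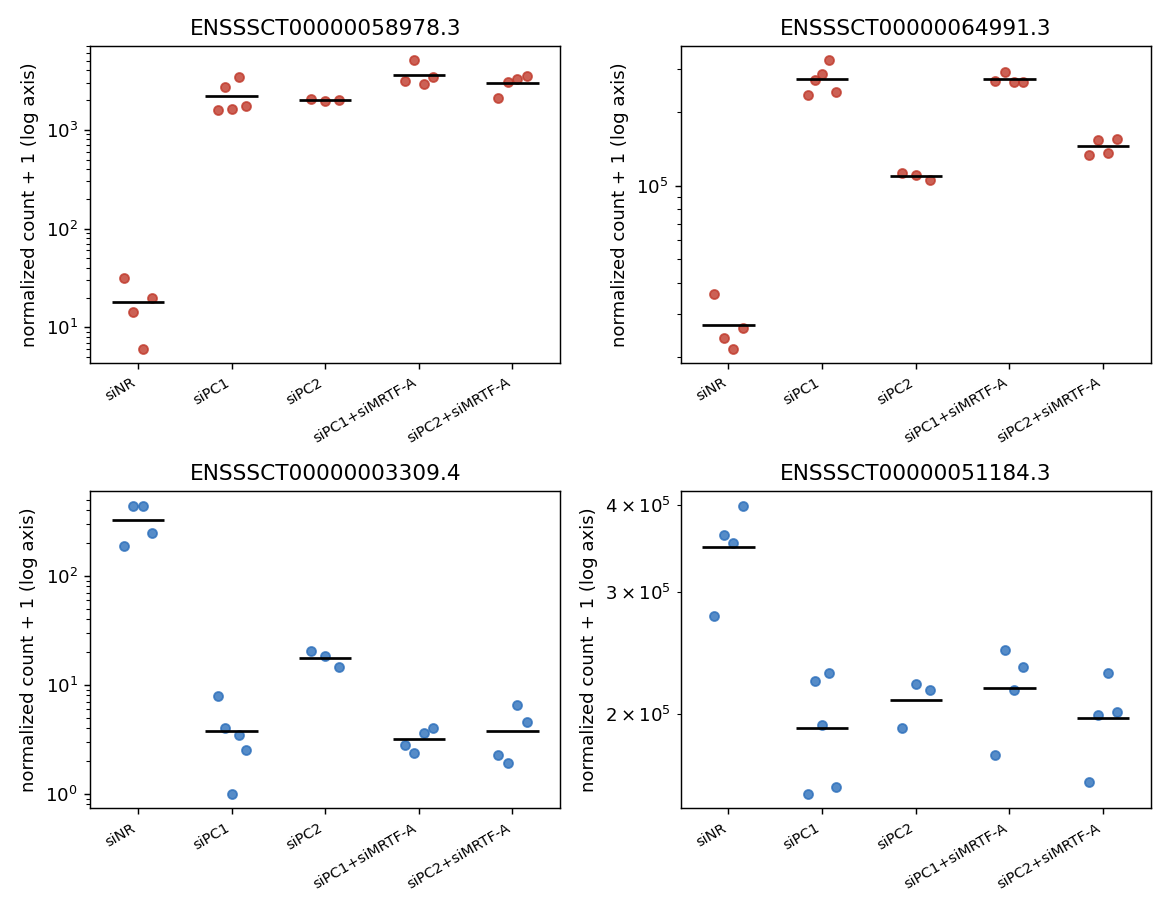
Each panel shows 1 named transcript, with points for the normalized count plus 1 in every library on a log axis and a black line for the group mean. In the upper panels siNR lies below every silenced group. For ENSSSCT00000064991.3 the siPC2+siMRTF-A mean of 144365 lies between that of siNR (27045) and that of siPC1+siMRTF-A (271148). In the lower panels siNR lies above every silenced group.

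Few transcripts escaped the division of reads. Counts were whole in all 20 libraries, within 1e-06, for 984 of the tested transcripts (3.55%). Of these, 68 (6.91%) were higher and 59 (6.0%) lower in siPC2+siMRTF-A than in siNR, with median log2 fold changes of 1.55 and -1.18 among those called. Of the 26718 others, 3435 (12.9%) were higher and 2865 (10.7%) lower, with medians of 0.98 and -0.93. These shares are of all tested transcripts of each kind, including those under the minimum mean count, which could not be called. How many of each kind lay under that minimum was not examined. Its part in the difference between the shares was not tested, so they do not show that either kind changed more often. Changes of more than 3 on the log2 scale were found in both kinds, in 7 raised and 5 lowered transcripts with whole counts and in 165 raised and 22 lowered others.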

How the data were processed

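RNA-Seq libraries were prepared from poly(A) RNA with a directional kit. The authors trimmed the reads with Trim Galore and deposited estimated counts per transcript, made with Salmon 0.14.1 on Ensembl coding sequences of Sscrofa11.1 and not normalized. Untranslated regions thus gave no counts, and a read that matched several transcripts was divided by estimation. Single-read and paired-end runs are both named in the methods. Which library had which is not given in the sources used here, and the part of read layout in any difference was not tested. The table holds transcripts, not the sums per gene that the methods describe.

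Here the estimated counts were rounded, filtered with filterByExpr by group (27702 of 46295 transcripts kept), scaled with TMM factors and fitted in R 4.3.3 with edgeR 4.0.16 as one quasi-likelihood model of the 5 groups in all 20 libraries. Normalized counts are divided by effective library size relative to its geometric mean. A standard error is the absolute log2 fold change over the square root of F. The square root of the median dispersion was 0.359. Totals of the 20 libraries ranged from 4421001 to 71007731, and counts of 0 and intervals cover counting error or the spread between libraries only. Libraries of siNR and of siPC2+siMRTF-A all differed from each other by more than sampling noise (lowest chi-square over degrees of freedom 13.4). Library measures were tested by exact permutation with scipy 1.17.1. The fitting procedure was tested on simulated data. The alternatives were DESeq2 1.42.0, library totals or RLE factors, another low-count filter, other thresholds, glmTreat, fewer libraries and replicate blocks. Named transcripts followed a written rule (largest fold and largest absolute change each way). The comparison, thresholds and rule were chosen with earlier results of these data known. The tables of 15623 and 30371 genes used for names matched 0 transcript identifiers, and no sequence was printed.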

Additional observations from a re-analysis of the deposited data

Results flagged for a closer look

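Among 40 groups of 4 or 5 libraries examined for a value far from the rest, 1 was found, where chance alone gives about 1 in 20. ENSSSCT00000064991.3 had a normalized count of 289917 in siPC1+siMRTF-A replicate 2, while the other 3 libraries of that group lay between 264183 and 266077, a gap of 0.926 of the group's range. The library lies outside the comparison with siNR, and without it the direct comparison of the siMRTF-A groups called 711 transcripts higher and 611 lower.

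The 2 groups with siMRTF-A differed in a direct test. In siPC2+siMRTF-A cells 795 transcripts were higher and 713 lower than in siPC1+siMRTF-A cells by edgeR. Of the 4 named transcripts, ENSSSCT00000064991.3 differed, with a log2 fold change of -0.91 and every siPC2+siMRTF-A library under every siPC1+siMRTF-A library. Since siNR is common to both arms, this difference is also that between their distances from siNR.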

How the results depend on the processing

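The way the fold change was used moved the counts most. Without a fold threshold, 10489 transcripts were called against siNR (5674 higher, 4815 lower), 1246 against siPC2 (586 higher, 660 lower) and 4080 against siPC1+siMRTF-A (2122 higher, 1958 lower). With glmTreat these were 3520 (2027 and 1493), 53 (12 and 41) and 271 (130 and 141). DESeq2 moved the transcripts higher than with siPC2 to 296. Leaving out each of the 20 libraries in turn gave 6143 to 6721 calls against siNR (3176 to 3654 higher, 2800 to 3067 lower), 347 to 480 against siPC2 (133 to 205 higher, 208 to 277 lower) and 1322 to 1648 against siPC1+siMRTF-A (711 to 885 higher, 611 to 763 lower). Scaling by library totals moved the share of higher calls against siNR from 54.5% to 70.1%. The 4 named transcripts kept their direction in all 29 refits. ENSSSCT00000003309.4 was not called without siNR replicate 3, where it fell under the minimum mean count (log2 fold change -6.73, edgeR adjusted p = 1.60e-06). Without the 2 libraries of lowest total, the counts of calls stayed within 1.5 times.

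Libraries of siNR and siPC2+siMRTF-A with the same number deviated together from their group means at Spearman correlations of 0.44, 0.12, 0.047 and 0.19 for numbers 1 to 4. Replicate 3 of siNR correlated best with number 4 (0.16) and replicate 4 with number 3 (0.44), so the numbers were not taken as pairs. With the number as a replicate block, siPC1 A2 left out, 6493 transcripts were called against siNR, 6308 of them the same as without the block, 447 against siPC2 and 1579 against siPC1+siMRTF-A. The block in the 2 groups alone gave 7072.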
